A study of Rattus norvegicus with 22 samples.

Results

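The mRNA levels of 10 claudins that are known from different stretches of the nephron were followed in the left kidney of 22 rats. They were Cldn1, Cldn2, Cldn3, Cldn4, Cldn7, Cldn8, Cldn10, Cldn14, Cldn16 and Cldn19, chosen by name as tight junction genes and matched to rat symbols through their Entrez identifiers. All 10 were found among the 17334 genes listed for each rat, and all 10 passed the filter on low counts that left 12867 genes for the tests.

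All rats were PKD/Mhm (Cy/+) animals, heterozygous for the Cy mutation of Anks6, which gives polycystic kidneys, and were 8 months old. The untreated group held 6 rats, 6 rats had received ASC, human adipose-derived stromal cells, intraperitoneally (i.p. ASC), 6 had received ASC intravenously (i.v. ASC) and 4 had received CM, a conditioned medium whose source cell the sample labels do not name. Treatment was monthly over 6 months, and per the study's methods the rats were males recognised as cystic by palpation of the abdomen. No rats without the mutation were analysed here, so every comparison lies within the cystic strain. Whole kidney RNA was sequenced, and a lower level can then mean fewer cells of a type or less RNA per cell, which cannot be told apart in such bulk samples.

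Claudins are membrane proteins that meet across neighbouring epithelial cells and set which ions pass between them. Some form pores, such as claudin-2 for sodium and water in the proximal tubule and claudin-10b for sodium in the thick ascending limb, and others seal the junction or block such pores, as claudin-14 does with the claudin-16 and claudin-19 pair that carries calcium and magnesium. Each stretch of the nephron therefore has its own set, with claudin-3, claudin-4, claudin-7 and claudin-8 towards the collecting duct and claudin-1 in the parietal cells that line the capsule of the glomerulus.

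Total estimated counts ran from 12195682 to 14734772 per rat. Levels between genes were compared in TPM, in which counts are scaled by transcript length and by the total, and levels between rats also in CPM, in which they are scaled by the total and by edgeR's TMM factors but not by length. The labelled tissue was checked against defining markers, and Umod of the thick ascending limb (847 to 4445 TPM), Slc34a1 of the proximal tubule (227 to 1405 TPM) and Aqp2 of the collecting duct (406 to 1582 TPM) were present in all 22 rats. Of the distal and connecting tubule list, Trpm6 was not listed and Pvalb stayed at or under 2.81 TPM. In 3 of the i.v. ASC rats (animals 3, 9 and 13) the summed level of 4 uroplakins, the membrane plaque proteins of urothelium, was 312, 499 and 116 TPM, against 1.33 to 19.8 TPM in the other 19 rats. Several results are also given without these 3 rats. Where no such value is given, how far a result rests on these rats is not shown.

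In the untreated group the 10 claudins spanned a wide range. Cldn4 had the highest mean, 209 ± 8.61 TPM (SD, n = 6), followed by Cldn2 with 187 ± 22.9 TPM (SD, n = 6), Cldn8 with 179 ± 21.2 TPM (SD, n = 6) and Cldn7 with 167 ± 10.8 TPM (SD, n = 6). These 4 lay close together. Cldn2 was above Cldn8 in 3 of 6 untreated rats, Cldn8 was above Cldn7 in 3 of 6, and Cldn4 was above Cldn2 in 5 of 6, so that the order of the first and second pair did not hold beyond the spread between rats. A clear step followed, since Cldn7 was above Cldn19 in 6 of 6 untreated rats. The claudins of the thick ascending limb came next, Cldn19 with 94.0 ± 22.6 TPM (SD, n = 6) and Cldn16 with 68.5 ± 16.6 TPM (SD, n = 6), and Cldn19 was above its partner Cldn16 in 22 of 22 rats. Cldn3 had 65.2 ± 10.7 TPM (SD, n = 6), Cldn10 54.9 ± 22.1 TPM (SD, n = 6) and Cldn1 25.2 ± 6.55 TPM (SD, n = 6). Cldn16 was above Cldn3 in 4 of 6 untreated rats, and Cldn3 above Cldn10 and Cldn10 above Cldn1 in 5 of 6 each. Cldn14 was by far the lowest at 1.83 ± 0.311 TPM (SD, n = 6), from 18 to 29 estimated counts per untreated rat. Over all 22 rats its counts ran from 10, in an i.p. ASC rat, to 29, in an untreated rat, with 95% Poisson intervals of 4.80 to 18.4 and 19.4 to 41.6 that cover counting error only.

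**Figure D1:**
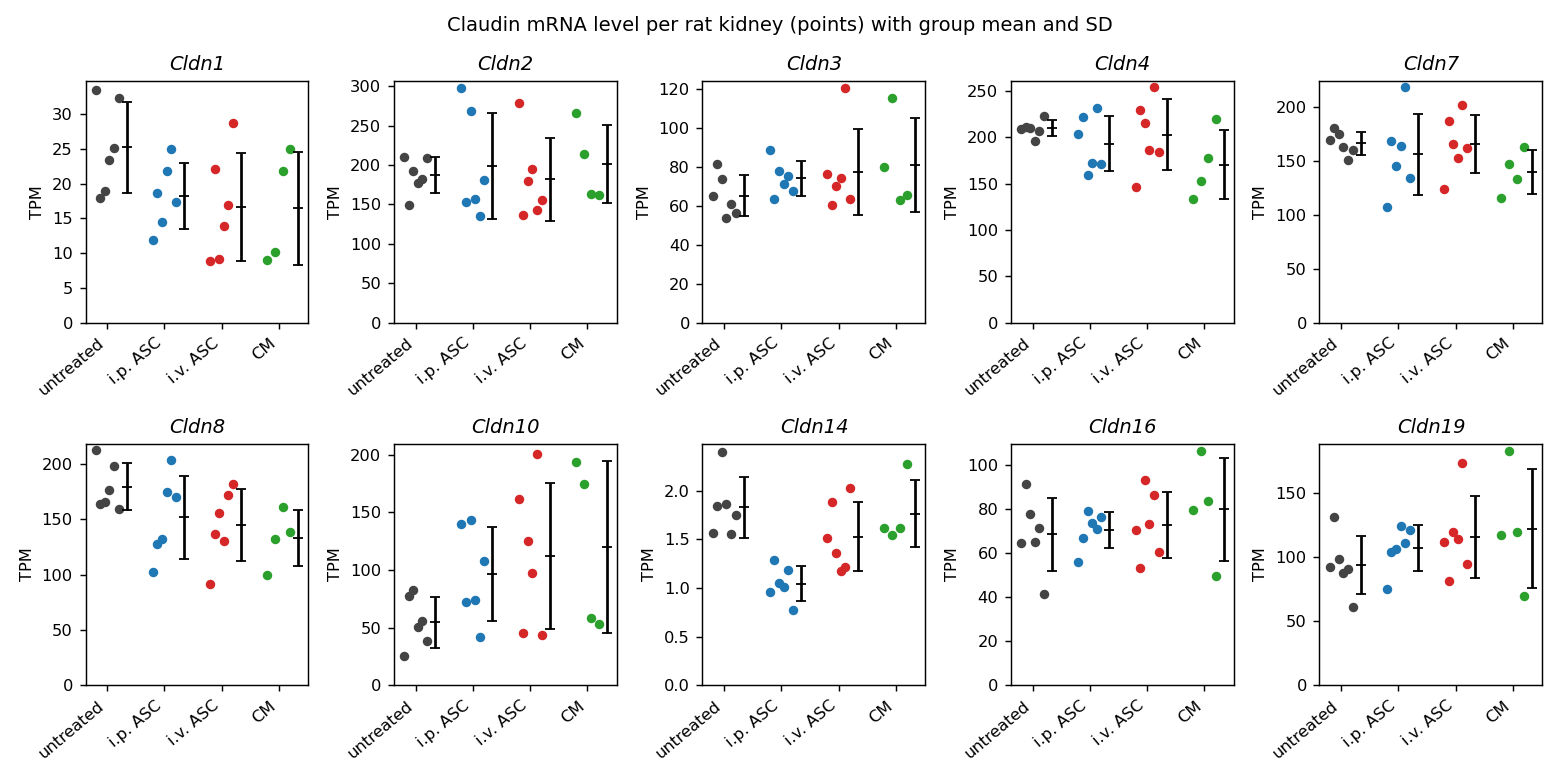
TPM (vertical axes, linear, each from 0) of the 10 claudins in each rat (points) by group, with the group mean and SD as a bar beside the points (n = 6, 6, 6 and 4). Cldn10 spreads widest, from 25.2 to 201 TPM, and Cldn14 is the only panel in which the i.p. ASC rats (0.776 to 1.29 TPM) lie wholly below the untreated rats (1.55 to 2.40 TPM).

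The first question was whether kidneys of treated rats differed from the untreated group in any claudin. With edgeR's quasi-likelihood test and Benjamini-Hochberg adjustment over all 12867 genes, 0 of 10 claudins passed an adjusted p of 0.05 after i.p. ASC, where 0% of all genes passed. The same count of 0 of 10 held after i.v. ASC (0% of all genes), after CM (0%) and between the rats given ASC by either route (0%). At an unadjusted p under 0.05 the claudins counted 1, 1, 2 and 1 of 10, and all genes 480, 1118, 830 and 277 of 12867. DESeq2 called 0, 28, 4 and 24 genes in these comparisons and 0 claudins in each. The median log2 fold change of the 10 claudins was 0.05 after i.p. ASC, 0.10 after i.v. ASC and 0.11 after CM, against -0.01, -0.01 and -0.0029 over all genes tested. The 3 treated groups share the same untreated rats, so their differences are not independent of each other.

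**Figure D2:**
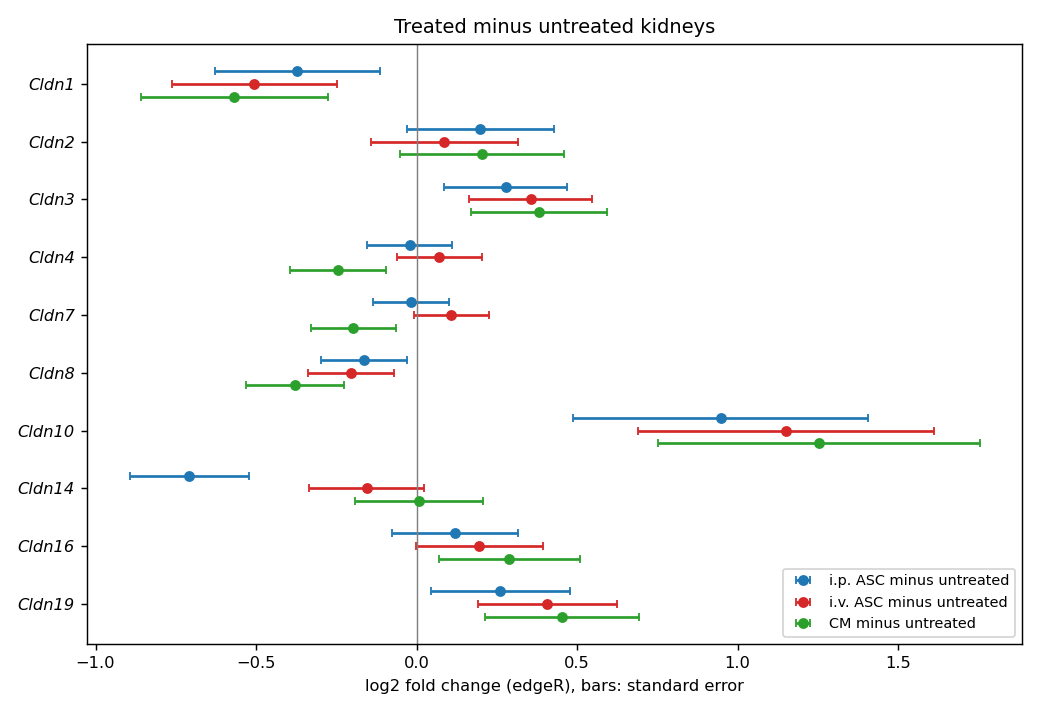
Log2 fold change of each claudin (rows) from edgeR for i.p. ASC, i.v. ASC and CM minus the untreated group, with standard errors as bars. Cldn10 lies furthest to the right (0.95, 1.15 and 1.25) and Cldn14 after i.p. ASC furthest to the left (-0.71), and no adjusted p was under 0.05.

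In the proximal tubule, Cldn2 forms the pore through which sodium and water return to the blood. Its level ran from 135 to 298 TPM over the 22 rats. The log2 fold changes were 0.20 after i.p. ASC, 0.09 after i.v. ASC and 0.20 after CM, each smaller than its standard error of 0.23 to 0.25, and so without a direction. Alternatives chosen after seeing the data gave values near 0 or on the other side of it. They were -0.097, -0.26 and -0.012 with animal number as a covariate, and 0.0025, -0.32 and -0.19 (SE 0.17, 0.19 and 0.20) with a score of podocyte markers. Without the 3 rats high in uroplakins the i.v. ASC value was -0.14 (SE 0.27). Cldn2 followed the proximal tubule markers over the 22 rats, whose score was the mean log2 CPM of 10 genes such as Lrp2, Cubn and Slc34a1. Pearson's r was 0.595 (permutation p = 0.00363, adjusted p = 0.0132) and Spearman's rho was 0.584 (permutation p = 0.00502, adjusted p = 0.0191). The value was 0.488 without the 2 rats farthest from the median score and 0.587 after each group was centred on its mean. Within groups it was -0.043 in untreated rats, 0.875 after i.p. ASC and 0.875 after i.v. ASC, and the difference between groups was not tested. Without the 3 rats high in uroplakins it was 0.492 with an adjusted permutation p of 0.0909. A stronger relation of Cldn2 was the negative one with the fibroblast markers (Col1a1, Col3a1, Pdgfrb, Dcn and Lum), at r = -0.783 (permutation p = 5e-05, adjusted p = 0.0004) and rho = -0.665 (permutation p = 0.00106, adjusted p = 0.00606), with -0.686 without the 2 farthest rats. These and the following adjusted permutation values are over 80 relations, 10 claudins against 8 marker lists, of which 28 passed 0.05. The share that other genes would reach is not given here, so this count does not set claudins apart. Claudin and marker values come from the same libraries and are relative to the same totals.

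Of the thick ascending limb claudins, Cldn10 varied most. The gene makes isoforms from different first exons, one typical of the thick ascending limb and one of the proximal tubule and other cells, and gene counts do not separate them. In the untreated group its lowest, median and highest levels were 25.2, 52.8 and 82.6 TPM. They were 41.9, 91.1 and 143 TPM after i.p. ASC and 43.2, 111 and 201 TPM after i.v. ASC. The 4 CM rats had 53.6, 58.7, 174 and 194 TPM. All groups overlapped, and 3 of 6 i.p. ASC rats, 4 of 6 i.v. ASC rats and 2 of 4 CM rats were above every untreated rat. Over the 22 rats Cldn10 varied 7.95-fold in TPM, and the SD of its log2 CPM, 0.92, was at the 97.3th percentile of all genes tested.

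The mean level of Cldn10 was 45.7 CPM in untreated rats, 88.0 CPM after i.p. ASC, 101 CPM after i.v. ASC and 109 CPM after CM. The log2 fold changes of 0.95 (SE 0.46), 1.15 (SE 0.46) and 1.25 (SE 0.50) had edgeR adjusted p-values of 0.772, 0.525 and 0.717, and so were not separated from the spread between rats. The 3 i.v. ASC rats high in uroplakins were also the highest of their group for Cldn10, at 161, 125 and 201 TPM, against 45.2, 97.0 and 43.2 TPM in the other 3. Without them the i.v. ASC difference was 0.28 (SE 0.54) with an adjusted p of 0.998. Without CM rat 2, the highest of its group, the CM difference was 0.81. Other cell type markers varied over the rats as well, and those of podocytes moved against Cldn10. The summed TPM of 4 podocyte markers (Nphs1, Podxl, Synpo and Wt1) was 70.8 to 157 in untreated rats, 55.6 to 125 after i.p. ASC, 33.8 to 132 after i.v. ASC and 33.7 to 142 after CM. With the podocyte score as a covariate, an alternative chosen after seeing the data, the differences were 0.50, 0.065 and 0.14. The proximal tubule score, a planned covariate, gave 0.88, 1.18 and 1.22. The part of the podocyte markers in the Cldn10 difference was not tested further.

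Cldn10 followed the thick ascending limb score, the mean log2 CPM of Umod, Slc12a1, Kcnj1, Casr and Ptger3, with the highest r of the 10 claudins. Pearson's r was 0.853 (permutation p = 1e-05, the smallest that 100000 permutations can give, adjusted p = 0.00016) and Spearman's rho was 0.853 (permutation p = 1e-05, adjusted p = 0.0002). The relation was 0.795 without the 2 farthest rats, 0.866 after centring on group means and 0.824 without the 3 rats high in uroplakins. Within groups it was 0.821 in untreated rats, 0.596 after i.p. ASC and 0.980 after i.v. ASC. The summed TPM of the 5 markers was 1311 to 3062 in untreated rats, 2078 to 4083 after i.p. ASC, 1572 to 4032 after i.v. ASC and 1484 to 5348 after CM. Cldn10 was also set against this score rat by rat, as its log2 CPM minus the marker mean. This relative level was higher than in the untreated group by 0.64 after i.p. ASC (two-sided exact permutation p = 0.0714), 0.85 after i.v. ASC (exact p = 0.0195) and 0.81 after CM (exact p = 0.0381). Adjusted over the 36 such differences computed for 9 claudins and 4 comparisons, these were 0.429, 0.175 and 0.274, and 0 of 36 passed while 5 of 36 were under 0.05 unadjusted. Without the 3 rats high in uroplakins the i.v. ASC value was 0.43 (SE 0.33, adjusted exact permutation p = 0.721). The subtraction takes 1 log2 unit of Cldn10 per unit of score. A fit with the score as a covariate, chosen after seeing the data, estimates that slope instead. There the differences after i.p. ASC, i.v. ASC and CM were 0.48, 0.66 and 0.55 (SE 0.25, 0.25 and 0.28).

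Cldn10 went the opposite way to the distal and connecting tubule markers Slc12a3, Calb1 and Trpv5. There r was -0.869 (permutation p = 1e-05, adjusted p = 0.00016) and rho was -0.876 (permutation p = 1e-05, adjusted p = 0.0002), with -0.848 without the 2 farthest rats and -0.864 after centring. The summed level of this list ran from 987 to 1673 TPM in untreated rats, 420.5 to 1451 TPM after i.p. ASC, 354 to 1269 TPM after i.v. ASC and 353 to 1182 TPM after CM. Against the podocyte score r was -0.821 (permutation p = 2e-05, adjusted p = 0.000229) and rho was -0.785 (permutation p = 8e-05, adjusted p = 0.000914), with -0.767 without the 2 farthest rats. Within untreated rats alone the podocyte relation was weak, at -0.238. The genes whose group-centred pattern over the 22 rats was most like that of Cldn10 were Sult2b1 (r = 0.963), Irx1 (r = 0.951), a homeobox gene of the nephron, and Tff3 (r = 0.948), a trefoil peptide, given as a description.

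**Figure D3:**
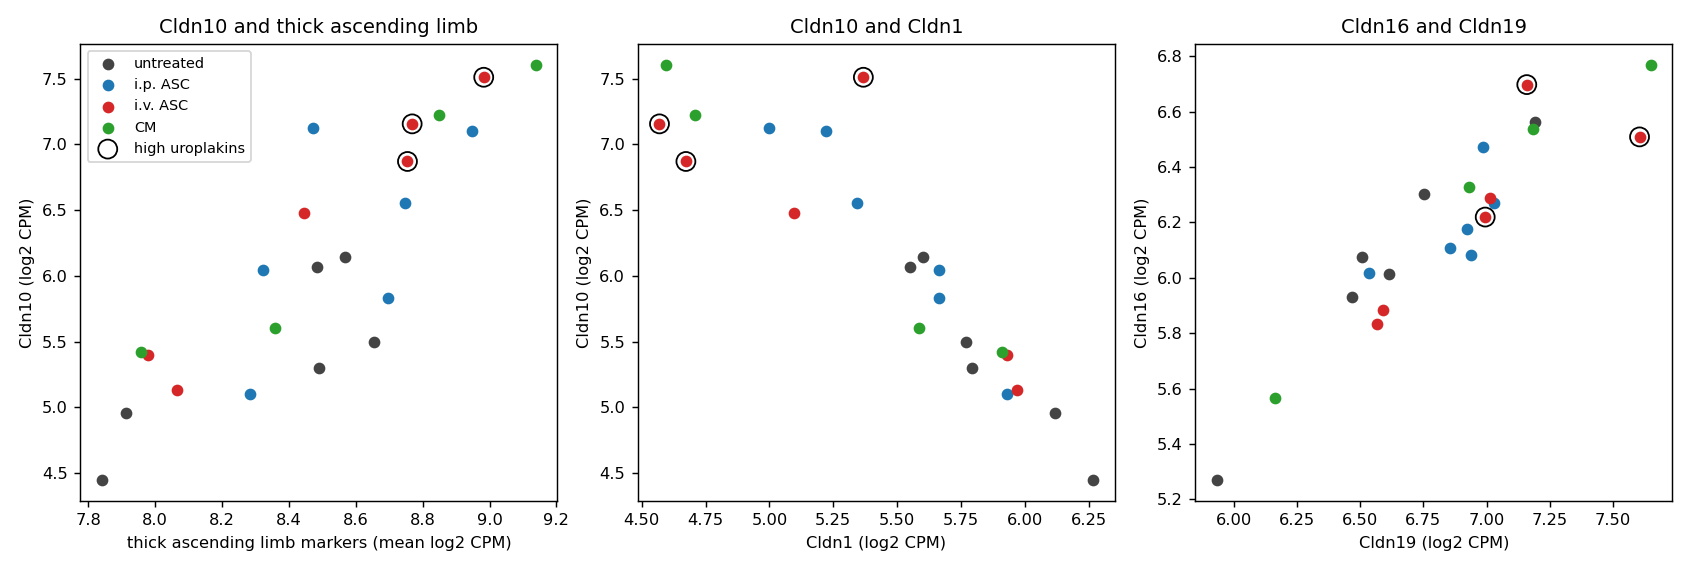
Each point is 1 of 22 rats, coloured by group, with rings around the 3 i.v. ASC rats high in uroplakins. Left, Cldn10 (log2 CPM) against the mean log2 CPM of 5 thick ascending limb markers (r = 0.853). Middle, Cldn10 against Cldn1, which fall along a descending line (r = -0.909). Right, Cldn16 against Cldn19, which rise together (r = 0.923).

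Cldn16 and Cldn19 encode the partners of the calcium and magnesium pathway of the thick ascending limb. Cldn16 had lowest, median and highest levels of 41.2, 68.3 and 91.1 TPM in untreated rats, 55.8, 72.3 and 79.2 TPM after i.p. ASC and 53.1, 71.8 and 93.2 TPM after i.v. ASC, and the CM rats had 49.7, 79.4, 83.6 and 106 TPM. Cldn19 had 61.6, 91.7 and 132 TPM in untreated rats, 75.1, 109 and 125 TPM after i.p. ASC and 81.2, 113 and 174 TPM after i.v. ASC, and the CM rats had 70.2, 117, 119.998 and 183 TPM. The groups overlapped for both genes. The log2 fold changes of Cldn16 were 0.12, 0.20 and 0.29 (SE 0.20, 0.20 and 0.22) and those of Cldn19 0.26, 0.41 and 0.45 (SE 0.22, 0.22 and 0.24) after i.p. ASC, i.v. ASC and CM, with edgeR adjusted p-values from 0.525 to 0.885. The proximal tubule score, a planned covariate, gave 0.15, 0.19 and 0.32 for Cldn16 and 0.31, 0.39 and 0.51 for Cldn19. The podocyte score was a covariate chosen after seeing the data. With it the CM difference of Cldn16 was -0.043 and the 3 differences of Cldn19 were 0.14, 0.051 and 0.083. Without the rats high in uroplakins the i.v. ASC difference of Cldn19 was 0.12 (SE 0.25) and that of Cldn16 was -0.057 (SE 0.24). With the podocyte score the i.v. ASC difference of Cldn16 was -0.14 (SE 0.17).

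These partners had the highest r of all pairs of claudins. Over the 22 rats r was 0.923 (permutation p = 1e-05, adjusted over 45 pairs p = 0.00015) and rho was 0.904 (permutation p = 1e-05, adjusted p = 0.00015), with 0.870 without the 2 farthest rats and 0.927 after centring. Among all 12867 genes tested, Cldn19 was the one most like Cldn16 after centring and Cldn16 the one most like Cldn19. The ratio of Cldn16 to Cldn19 in TPM had a lowest value of 0.496, a median of 0.672 and a highest value of 0.787. Both followed the thick ascending limb score. For Cldn16 r was 0.768 (permutation p = 2e-05, adjusted p = 0.000229) and rho was 0.738 (permutation p = 0.00016, adjusted p = 0.00142), with 0.792 without the 2 farthest rats. For Cldn19 r was 0.733 (permutation p = 8e-05, adjusted p = 0.000582) and rho was 0.701 (permutation p = 0.00039, adjusted p = 0.00284), with 0.752 without them. For principal cell markers of the collecting duct r was 0.519 for Cldn16 and 0.484 for Cldn19 (adjusted permutation p = 0.0434 and 0.0635). There rho was 0.420 and 0.505 (adjusted permutation p = 0.14 and 0.056). Without the 2 farthest rats r fell to 0.370 and 0.360, and without the rats high in uroplakins to 0.367 and 0.355. The relation to principal cell markers thus rested in part on the rats left out. After centring, with all 22 rats, r was 0.633 and 0.562 (adjusted permutation p = 0.0105 and 0.0291). Within untreated rats r was 0.891 and 0.956, against 0.612 and 0.478 for the thick ascending limb score. Against the podocyte score r was -0.687 and -0.708 (adjusted permutation p = 0.00206 and 0.00142). Relative to the thick ascending limb score, no difference between groups passed the test for either gene. Differences were -0.13 to 0.04 for Cldn16 and -0.19 to 0.24 for Cldn19, with exact permutation p-values from 0.139 to 0.919.

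The promoter stretches of the claudins that moved most closely together or apart over the rats are shown for Cldn10, Cldn16, Cldn19 and Cldn1. Each is the 250 bases before the gene's start on the gene's own strand, written 5′ to 3′ from RefSeq's GRCr8 assembly, with capitals marking a CCAAT box (CCAAT) or a GC box (GGGCGG) found on either strand. They lie at chr15:102269608-102269857 on the plus strand for Cldn10, chr11:87814397-87814646 on the minus strand for Cldn16, chr5:138148325-138148574 on the plus strand for Cldn19 and chr11:87926126-87926375 on the plus strand for Cldn1.
Cldn10: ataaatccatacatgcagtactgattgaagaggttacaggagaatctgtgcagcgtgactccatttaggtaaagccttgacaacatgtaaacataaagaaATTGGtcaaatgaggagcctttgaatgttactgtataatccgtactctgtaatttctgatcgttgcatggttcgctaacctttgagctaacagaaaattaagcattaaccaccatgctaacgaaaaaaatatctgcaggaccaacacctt
Cldn16: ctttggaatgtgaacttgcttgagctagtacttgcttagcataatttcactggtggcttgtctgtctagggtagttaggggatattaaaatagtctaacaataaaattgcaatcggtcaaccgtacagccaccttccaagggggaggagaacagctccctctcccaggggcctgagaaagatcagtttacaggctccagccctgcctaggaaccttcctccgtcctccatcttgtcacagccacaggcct
Cldn19: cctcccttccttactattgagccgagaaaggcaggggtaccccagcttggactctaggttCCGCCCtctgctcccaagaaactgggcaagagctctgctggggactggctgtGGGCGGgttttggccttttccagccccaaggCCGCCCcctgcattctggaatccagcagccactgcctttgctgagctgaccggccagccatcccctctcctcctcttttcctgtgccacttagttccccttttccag
Cldn1: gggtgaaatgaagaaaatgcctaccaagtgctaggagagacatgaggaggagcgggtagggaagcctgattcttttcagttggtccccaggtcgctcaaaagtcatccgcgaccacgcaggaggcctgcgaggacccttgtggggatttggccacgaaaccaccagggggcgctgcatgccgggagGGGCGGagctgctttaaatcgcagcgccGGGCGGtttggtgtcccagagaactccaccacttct
The tied partners Cldn16 and Cldn19 differed in these letters. The Cldn19 stretch holds 60.0% G and C and 3 GC boxes, whereas that of Cldn16 holds 49.2% and neither box. The Cldn10 stretch, with 38.0%, has 1 CCAAT box on the reverse strand, and the Cldn1 stretch, with 59.2%, has 2 GC boxes. For Cldn10, whose isoforms start at different first exons, only this 1 stretch was searched, and its isoform is not given. An entry was found for 8 of the 10 claudins, all but Cldn2 and Cldn4. A CCAAT box was present in 3 of 8 (Cldn3, Cldn8 and Cldn10) against 34% of 33469 RefSeq promoters of the same length, and a GC box in 4 of 8 (Cldn1, Cldn3, Cldn7 and Cldn19) against 30.5%. The TATA box TATAAA, present in 12.9% of all promoters, the grainyhead-like motif AACCGGTT (0.146%), the HNF4 motif CAAAGTCCA (0.338%) and the HNF1 motif (0.00299%) were each searched on both strands and were in none of the 8. These matches describe letters only.

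Cldn14, which blocks the Cldn16 and Cldn19 pathway when calcium is high, was the claudin whose groups came apart. Its lowest, median and highest levels were 1.55, 1.79 and 2.40 TPM in untreated rats, 0.776, 1.03 and 1.29 TPM after i.p. ASC and 1.17, 1.43 and 2.03 TPM after i.v. ASC. The CM rats had 1.54, 1.62, 1.62 and 2.28 TPM. All 6 i.p. ASC rats were below all 6 untreated rats, which was so for 0.163% of the 12867 genes tested, and the other treated groups overlapped the untreated one. No other claudin separated a pair of groups in either direction. Rats of one group all above those of the other made up 0.0155% of genes for i.p. ASC over untreated, 0% for i.v. ASC and 0.264% for CM. All below made up 0.171% for i.v. ASC and 1.12% for CM. Between the ASC routes, 0.0311% of genes had every i.p. ASC rat below every i.v. ASC rat and 0.0155% above. The estimated counts behind this were 18 to 29 per untreated rat and 10 to 16 per i.p. ASC rat. The log2 fold change after i.p. ASC was -0.71 (SE 0.19), the 1 claudin value of that comparison with an unadjusted p under 0.05. Its edgeR adjusted p over all genes was 0.772. DESeq2 gave -0.70 with a wider SE of 0.24 and an adjusted p of 0.843. The edgeR value lay between -0.79 and -0.60 when each rat in turn was left out. After i.v. ASC and CM the values were -0.16 (SE 0.18) and 0.0083 (SE 0.20), each smaller than its standard error. The i.p. ASC rats were also lower than the i.v. ASC rats by a log2 fold change of -0.55 (SE 0.19, edgeR adjusted p = 1), with 4 of 6 below every i.v. ASC rat. Unlike the other claudins of this segment, Cldn14 did not pass the test against the thick ascending limb score, with r = -0.325 (permutation p = 0.141, adjusted p = 0.257), rho = -0.258 (permutation p = 0.244, adjusted p = 0.399) and -0.468 without the 2 farthest rats. Its level relative to that score was lower by 0.89 log2 units after i.p. ASC than in untreated rats (difference -0.89, exact permutation p = 0.00649, adjusted p = 0.171).

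Cldn3, Cldn4, Cldn7 and Cldn8 are the claudins of the collecting duct, where claudin-4 and claudin-8 form a chloride pathway, claudin-7 sits largely along the basolateral membrane, and claudin-3 seals the junction. Cldn8 was lower on average in every treated group. Its lowest, median and highest levels were 159.7, 171 and 212 TPM in untreated rats, 102, 151 and 204 TPM after i.p. ASC and 91.4, 146 and 182 TPM after i.v. ASC, and the CM rats had 100.045, 132, 138 and 161 TPM. The groups overlapped, with 3 of 6, 4 of 6 and 3 of 4 treated rats below every untreated rat. The log2 fold changes were -0.16, -0.20 and -0.38 (SE 0.13, 0.13 and 0.15), and the CM value had an unadjusted edgeR p of 0.0217 and an adjusted p of 0.717. Cldn3 was between 53.7 and 121 TPM, with log2 fold changes of 0.28, 0.36 and 0.38 (SE 0.19, 0.19 and 0.21) and edgeR adjusted p-values of 0.772, 0.525 and 0.724. With the podocyte score as a covariate, chosen after seeing the data, these values of Cldn3 were 0.13, 0.0038 and 0.033. The proximal tubule score, a planned covariate, gave 0.31, 0.34 and 0.42. The i.v. ASC value of Cldn3 was 0.104 (SE 0.22) without the rats high in uroplakins. Cldn4 and Cldn7 had values within their standard errors after both ASC routes, from -0.02 to 0.11. After CM they were -0.24 (SE 0.15) and -0.20 (SE 0.13), with 3 of 4 CM rats below every untreated rat for each gene and edgeR adjusted p-values of 0.748 and 0.78.

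Of these 4, Cldn7 passed the test against the principal cell score, the mean log2 CPM of 7 genes such as Aqp2, Avpr2 and Hsd11b2, and the others did not. For Cldn7 r was 0.641 (permutation p = 0.00112, adjusted p = 0.0056) and rho was 0.636 (permutation p = 0.00193, adjusted p = 0.00964), with 0.623 without the 2 farthest rats. After centring it was 0.553 with an adjusted permutation p of 0.0912. For Cldn3, Cldn4 and Cldn8 r was 0.268, 0.414 and 0.351, with adjusted permutation p-values of 0.386, 0.123 and 0.223. Cldn7 had its strongest relation with the proximal tubule score, a negative one, at r = -0.714 (permutation p = 0.00018, adjusted p = 0.0012) and rho = -0.708 (permutation p = 0.00037, adjusted p = 0.00284), with -0.577 without the 2 farthest rats. Cldn3, which is known from the thick ascending limb onwards, followed that limb's score at r = 0.615 (permutation p = 0.00221, adjusted p = 0.00884) and rho = 0.636 (permutation p = 0.00187, adjusted p = 0.00964), with 0.599 without the 2 farthest rats, but after centring it was 0.581 with an adjusted permutation p of 0.0632. Against the distal and connecting tubule score it had r = -0.867 (permutation p = 1e-05, adjusted p = 0.00016) and rho = -0.800 (permutation p = 1e-05, adjusted p = 0.0002), with -0.832 without the 2 farthest rats. Cldn8 was on the other side, at r = 0.620 (permutation p = 0.00221, adjusted p = 0.00884) and rho = 0.633 (permutation p = 0.00206, adjusted p = 0.00964) with the distal and connecting tubule score, with 0.569 without the 2 farthest rats, and after centring it was 0.480 with an adjusted permutation p of 0.121. By r the strongest relation of Cldn8 was a negative one, with the proximal tubule score (r = -0.650, permutation p = 0.00106, adjusted p = 0.0056). There rho was -0.574 (permutation p = 0.00639, adjusted p = 0.0224), with -0.576 without the 2 farthest rats. After centring it was -0.696 with an adjusted permutation p of 0.0105.

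**Figure D4:**
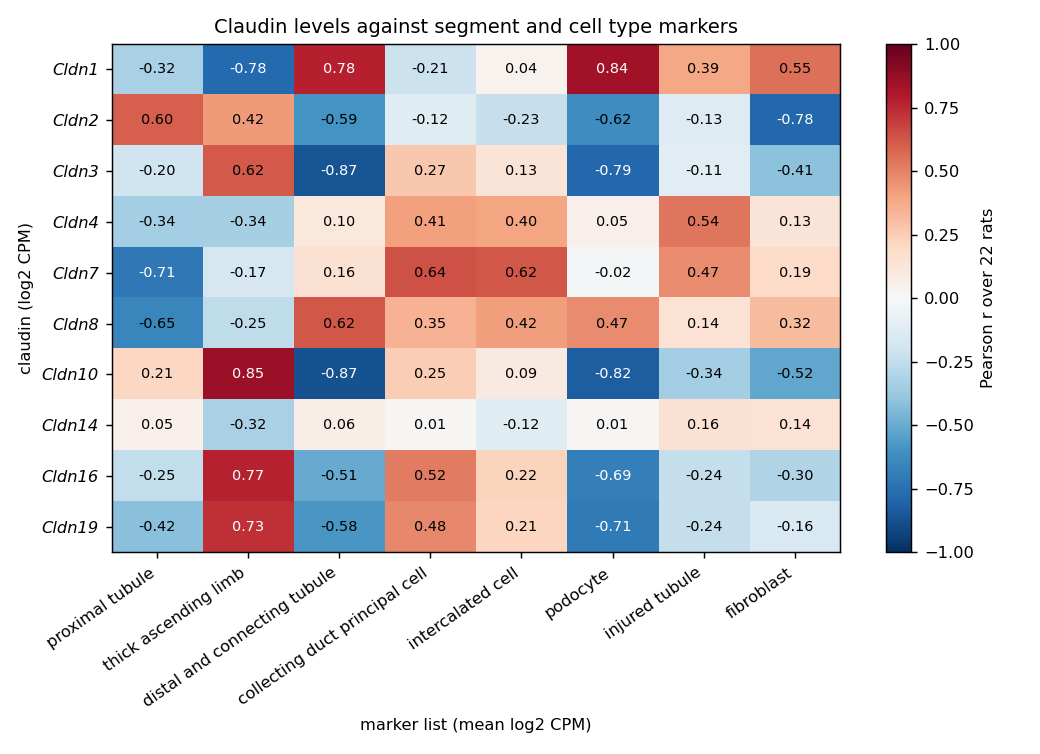
Pearson's r over 22 rats between the log2 CPM of each claudin (rows) and the mean log2 CPM of each marker list (columns), printed in each cell and coloured from blue (negative) to red (positive). Cldn10, Cldn16 and Cldn19 are red under the thick ascending limb (0.85, 0.77 and 0.73). Cldn1 is blue there (-0.78) and red under the podocyte list (0.84) and the distal and connecting tubule list (0.78). The row of Cldn14 is pale throughout.

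Relative to the principal cell score, Cldn8 was lower after i.v. ASC than in untreated rats (difference -0.54, exact permutation p = 0.013) and Cldn3 higher after CM (difference 0.56, exact permutation p = 0.0143), each with an adjusted p of 0.171. Neither gene passed the test against this score, and subtracting it also brings in its own shift. The mean score was 7.54 in untreated rats, 7.85 after i.v. ASC and 7.33 after CM. The relative values of Cldn4 were -0.06, -0.27 and -0.05, and those of Cldn7 -0.05, -0.22 and 0.01 after i.p. ASC, i.v. ASC and CM, with exact permutation p-values from 0.139 to 0.924. Without the 3 rats high in uroplakins the i.v. ASC values were -0.27 for Cldn8 (SE 0.13, adjusted exact permutation p = 0.643), -0.070 for Cldn4 and 0.039 for Cldn7.

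Cldn1 is the claudin of the parietal cells of the glomerular capsule. Its lowest, median and highest levels were 17.96, 24.3 and 33.5 TPM in untreated rats, 11.9, 18.03 and 25.0 TPM after i.p. ASC and 8.81, 15.4 and 28.8 TPM after i.v. ASC, and the CM rats had 8.95, 10.1, 21.7 and 25.0 TPM. The groups overlapped, and 3 of 6, 4 of 6 and 2 of 4 treated rats were below every untreated rat. The log2 fold changes were -0.37, -0.51 and -0.57 (SE 0.26, 0.26 and 0.29) with edgeR adjusted p-values of 0.772, 0.525 and 0.717. With the podocyte score as a covariate, chosen after seeing the data, they were -0.19, -0.11 and -0.25. The proximal tubule score, a planned covariate, gave -0.37, -0.54 and -0.47. The thick ascending limb score, also chosen after seeing the data, gave -0.11, -0.37 and -0.40 (SE 0.16, 0.16 and 0.18). The i.v. ASC value was -0.16 (SE 0.27) without the rats high in uroplakins. Over the 22 rats Cldn1 followed the podocyte score at r = 0.837 (permutation p = 1e-05, adjusted p = 0.00016) and rho = 0.741 (permutation p = 0.00016, adjusted p = 0.00142), with 0.770 without the 2 farthest rats. Within the untreated rats it was 0.067. Cldn1 also followed the distal and connecting tubule score, at r = 0.775 (permutation p = 1e-05, adjusted p = 0.00016). There rho was 0.796 (permutation p = 2e-05, adjusted p = 0.00032), with 0.682 without the 2 farthest rats and 0.392 within untreated rats. Cldn1 went against the thick ascending limb score at r = -0.781 (permutation p = 3e-05, adjusted p = 0.000267) and rho = -0.801 (permutation p = 3e-05, adjusted p = 0.0004), with -0.699 without the 2 farthest rats. The genes most like Cldn1 after centring were Pdpn (r = 0.942), which encodes podoplanin, Myadm (r = 0.942) and Prnp (r = 0.940).

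Cldn1 and Cldn10 formed the strongest opposed pair. Their r was -0.909 (permutation p = 1e-05, adjusted over 45 pairs p = 0.00015) and their rho was -0.937 (permutation p = 1e-05, adjusted p = 0.00015), with -0.894 without the 2 farthest rats, -0.890 after centring and -0.964 without the 3 rats high in uroplakins. Within groups the value was -0.972 in untreated rats, -0.972 after i.p. ASC and -0.780 after i.v. ASC, so that the relation was also there without treatment. Of the 45 pairs of claudins, 17 passed an adjusted permutation p of 0.05, 10 of them positive and 7 negative. The share among pairs of other genes is not given here, so this count does not show a trait particular to claudins. Cldn3 and Cldn10 were tied at r = 0.825 (permutation p = 1e-05, adjusted p = 0.00015) and rho = 0.853 (permutation p = 1e-05, adjusted p = 0.00015), with 0.796 without the 2 farthest rats, and Cldn4 and Cldn7 at r = 0.730 (permutation p = 0.00025, adjusted p = 0.00141) and rho = 0.766 (permutation p = 0.0001, adjusted p = 0.000619), with 0.661 without them.

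The claudins next to each other on a chromosome are given as a description, and a part of place in these relations was not tested. Cldn1 and Cldn16 are next to each other on chromosome 11, with 0 protein-coding genes between them in RefSeq's GRCr8 table, yet their levels were opposed, at r = -0.702 (permutation p = 0.00025, adjusted p = 0.00141) and rho = -0.755 (permutation p = 0.00011, adjusted p = 0.000619), with -0.746 without the 2 farthest rats. Cldn3 and Cldn4, neighbours on chromosome 12, had r = 0.113 (permutation p = 0.617, adjusted p = 0.688) and rho = 0.082 (permutation p = 0.716, adjusted p = 0.827), with 0.069 without the 2 farthest rats. Cldn16 and Cldn19, the closest pair, lie on chromosomes 11 and 5.

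The rest of the tight junction was read from a list of 35 other genes, of which 31 were listed in the files and 28 tested. By edgeR 0 of 28 passed in any comparison, and 0, 3, 2 and 0 of 28 had an unadjusted p under 0.05 after i.p. ASC, i.v. ASC, CM and between the ASC routes, where all genes tested had shares of 3.73%, 8.69%, 6.45% and 2.15%. More of the list lay below 0 than above, with 7 above and 21 below after i.p. ASC, 7 and 21 after i.v. ASC and 10 and 18 after CM, while 53.8%, 52.5% and 50.9% of all genes lay below 0. The medians of the list were -0.06, -0.06 and -0.06 against -0.01, -0.01 and -0.0029 over all genes. F11r, the junctional adhesion molecule A, was the highest of the list at 286 ± 30.2 TPM (SD, n = 22). In CM rats it had 331 ± 23.2 CPM against 393 ± 22.03 CPM in untreated rats (n = 4 and 6, log2 fold change -0.25, SE 0.09, edgeR adjusted p = 0.717). Tjp1, the scaffold ZO-1, had 119 ± 18.7 CPM after i.v. ASC against 149 ± 27.5 CPM (n = 6 each, -0.33, SE 0.15, edgeR adjusted p = 0.525). Cldn23 had 7.57 ± 3.81 CPM after i.v. ASC against 4.07 ± 0.613 CPM (n = 6 each, 0.89, SE 0.30, edgeR adjusted p = 0.525), and Cldn9 had 11.9 ± 1.82 CPM after CM against 18.3 ± 4.91 CPM (n = 4 and 6, -0.63, SE 0.24, edgeR adjusted p = 0.717). After i.p. ASC the smallest unadjusted p-values of the list were those of the scaffold Magi1 (-0.27, SE 0.15) and of Cldn15 (-0.56, SE 0.32), both with an edgeR adjusted p of 0.772. Between the ASC routes they were those of Cldn23 (-0.61, SE 0.30) and Jam3 (0.19, SE 0.16), i.p. minus i.v., both with an edgeR adjusted p of 1. Cldn34a was listed at 0 in all 22 rats and Cldn18 stayed at or under 0.0733 TPM.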

How the data were processed

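Total RNA of the left kidney of 22 rats was sequenced on the BGISEQ-500. The authors deposited 2 values per gene and rat. The estimated counts were deposited per Entrez gene without normalization. The TPM values deposited by the authors are counts scaled by transcript length and total, and sum to 959754 to 968550 per rat. The submitters' processing notes name Trim Galore 0.6.4, kallisto and the build rn6, whereas the study's methods name DESeq2 and a human transcript package. How reads shared by paralogs, antisense or overlapping genes were split is not given in the sources used here.

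Counts were rounded, since 14.1% were not whole. Of 17334 genes, 17179 were matched to symbols through RefSeq's GRCr8 gene table, used for names and neighbours, and 155 were not. edgeR 4.0.16 in R 4.3.3 (TMM, filterByExpr, robust quasi-likelihood F test) was fitted to all 4 groups and 12867 genes. Adjusted p-values (Benjamini-Hochberg) were read at 0.05. The fit was tested on simulated counts with changes larger than that of any claudin, which does not show that it would find smaller ones. Standard errors were taken from the log2 fold change and its F. A log2 fold change smaller than its standard error was given no direction. Log2 CPM used a prior count of 2. Correlations used 100000 permutations, and levels relative to a segment two-sided exact permutation tests. One marker of the podocyte list is not reported here and was left out of its score. Urothelial markers, which fell into separate clusters of rats, were left out of correlations. Groups and animal numbers came from the sample labels. No 2 rats of a group agreed within sampling noise (chi-square per gene 7.31 to 141). Alternatives were DESeq2 1.42.0, limma 3.58.1 with a trend on log2(TPM + 1), RLE factors, other filters, fewer groups, marker covariates, another prior count (0.5) and the omission of rats. Named were the 10 claudins, for each the 3 genes most like it after centring on group means, the 2 listed tight junction genes with the smallest p in each comparison, and markers as examples. The levels of F11r, Cldn34a and Cldn18 were named after their values were seen. Claudins, lists and tests were chosen with earlier results of these data known, so no p was adjusted over the claudins alone.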

Additional observations from a re-analysis of the deposited data

Results flagged for a closer look

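Of 40 groups of rats checked, 10 claudins in 4 groups, 1 held a rat that stood apart by Dixon's criterion, which chance meets in about 1 of 20 groups. In i.p. ASC rat 5 Cldn19 was 6.53 on the log2 CPM scale, below the 6.85 to 7.03 of the other rats of that group.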

How the results depend on the processing

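In every alternative run 0 of 10 claudins and 0 of the listed tight junction genes passed the threshold. Over all genes, DESeq2 called 28 genes after i.v. ASC, 4 after CM and 24 between the ASC routes. For CM, the fit of only its own and the untreated group called 1 gene, and the fit without the 3 rats high in uroplakins 3. The thick ascending limb covariate gave 8 genes between the routes. Leaving out 1 rat gave 0 to 12 genes after i.v. ASC (11 without i.v. ASC rat 8, 12 without rat 14) and 0 to 13 between the routes (13 without either). The cause was not tested. Of the 40 claudin fold changes, 19 were smaller than their standard error, and under alternatives other than leaving out 1 rat 29 of their 209 values had the other sign, over 15 of the 19. Examples are Cldn2 after i.v. ASC (-0.32) and Cldn10 between the routes (0.43) with the podocyte covariate, and the latter at 0.69 without the rats high in uroplakins. Of the 21 others 1 turned, Cldn16 after CM (-0.043) with the podocyte covariate. Of the relative levels at or above their standard error, the sign turned for those of Cldn7 after i.v. ASC (0.039) and between the routes (-0.088) and of Cldn14 after i.v. ASC (0.12) without the rats high in uroplakins. The correlation of Cldn8 with the principal cell score passed at 0.536 once animal number was regressed out, and that of Cldn4 at 0.523 without i.p. ASC rat 5. With animal number as a covariate, Cldn10 differed by 0.53, 0.69 and 0.82. No paired analysis was possible because the groups hold different animals and share no animal number. The low counts of Cldn14 limit its precision, and with 4 rats CM has the widest errors.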

Other observations

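Some claudins moved with the animal number of the labels, whose meaning the labels do not give. Over the 22 rats Cldn2 had r = -0.597 (permutation p = 0.0033, adjusted over 10 claudins p = 0.033), rho = -0.506 (permutation p = 0.0177, adjusted p = 0.0886) and -0.670 without the 2 farthest numbers. Cldn3 had r = -0.535 (permutation p = 0.0103, adjusted p = 0.0515), rho = -0.605 (permutation p = 0.0035, adjusted p = 0.035) and -0.579 without them. For Cldn10, r was -0.449 (permutation p = 0.0361, adjusted p = 0.0847), rho was -0.444 (permutation p = 0.0382, adjusted p = 0.0993) and the value was -0.663 without them. After centring on group means these were -0.638, -0.464 and -0.342.

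The genes most like the other claudins after centring are given as values, over 22 rats. Cldn2 was most like Zdhhc9 (r = 0.972), Lactb (r = 0.970) and Cdh2 (r = 0.968), which encodes N-cadherin, the cadherin of proximal tubule cells. Cldn3 was most like the homeobox genes Hoxb7 (r = 0.892) and Hoxb8 (r = 0.886) and Lrguk (r = 0.881). Cldn7 was most like Sh3bgrl3 (r = 0.881), St14 (r = 0.876), which encodes the epithelial protease matriptase, and Tmem123 (r = 0.854). Cldn8 was most like Cyp4v3 (r = 0.919), Hdgfl3 (r = 0.901) and Bcam (r = 0.870). Cldn4 had no gene above 0.812 (Mrnip), and Cldn14 none above 0.774 (Tmem41b). Besides each other, Cldn16 was next most like Tmem184a (r = 0.890) and Cldn19 next most like the keratin Krt19 (r = 0.909).

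Cldn4 had its strongest relation with the injured tubule markers Havcr1, Lcn2, Sox9, Vcam1 and Cd44, at r = 0.538 (permutation p = 0.00945, adjusted p = 0.0302) and rho = 0.4997 (permutation p = 0.0189, adjusted p = 0.056), and with 0.362 without the 2 farthest rats it rested in part on them. Cldn7 followed the intercalated cell markers (Atp6v1g3, Atp6v0d2, Slc4a1, Slc26a4 and Foxi1) at r = 0.624 (permutation p = 0.00215, adjusted p = 0.00884) and rho = 0.633 (permutation p = 0.00217, adjusted p = 0.00964), with 0.558 without the 2 farthest rats. After centring it was 0.532 with an adjusted permutation p of 0.0536, and within untreated rats it was 0.075.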
